A study of Mus musculus with 4 samples.

Results

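The unannotated splice junctions are places where sequenced RNA fragments joined 2 stretches of the genome that the gene models used for counting do not join. The deposited tables list 5005 of them, each under a gene and by a number only, beside 240574 junctions that the models do hold. Of these, 4742 were taken here, in 2517 host genes. They were chosen by their own counts, as the unannotated junctions in rows that stand for a single gene with at least 10 counts summed over all 4 samples. The 259 junctions in rows that merge overlapping genes were left out, as were 4 junctions with totals of 2, 3, 5 and 9 counts, while those just inside the threshold had 10, 11 and 12. The genotype played no part in that choice.

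The samples are diplotene spermatocytes, the germ cells late in the first meiotic prophase, from testes of mice at 20 dpp (days post partum). There were 2 samples from Tdrd6+/- mice and 2 from Tdrd6-/- mice, each pooled from at least 4 animals, so the spread between samples is a spread between pools. In both genotypes the cells were isolated with magnetic beads against human CD4, a surface marker expressed from the endogenous Tdrd6 promoter, so the sort follows cells in which that promoter is active and is not pure for 1 stage. Total RNA freed of ribosomal RNA was sequenced with strand information. TDRD6 is a multi-tudor-domain protein of the chromatoid body, and the study asked whether its loss alters splicing in these cells.

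An intron is removed when the spliceosome, built from the U1, U2, U4/U6 and U5 small nuclear ribonucleoproteins (snRNPs), joins a donor site to an acceptor site, and each such pairing leaves a junction in the mature RNA. Each snRNP apart from U6 carries a ring of Sm proteins, some of which are dimethylated on arginine by PRMT5 before the ring is assembled. The testis is known for very diverse transcripts, many of them from alternative start sites, noncoding genes and testis-restricted exons, so a counted junction that no model holds may be rare splicing, an error or a proper intron that the annotation lacked. No position was used for these junctions here, so no splice site sequence is shown.

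Gene counts (read pairs assigned to genes) summed to between 26454326 and 31388750 per sample. Tdrd6 itself had 33220 and 39322 counts in heterozygous cells and 359 and 400 in Tdrd6-/- cells (log2 fold change -6.81, SE 0.170, adjusted p = 8.40e-18, edgeR quasi-likelihood test), so all 4 labels held. The 8 late-prophase markers other than Tdrd6 summed to 2262 and 1908 CPM (counts scaled to the library total) in Tdrd6+/- and 1961 and 2048 CPM in Tdrd6-/-. Of 6 spermatid markers, Prm1, Prm2, Tnp1 and Tnp2 stayed under 1 CPM in every sample. The whole list summed to 9.11 and 12.5 CPM in Tdrd6+/- and to 22.5 and 20.1 CPM in Tdrd6-/-. Most of each sum came from the other genes of the list, and both Tdrd6-/- sums lay above both Tdrd6+/- sums. Whether the samples differed in their content of spermatids was not tested. The summed Sertoli cell markers lay between 36.1 and 50.3 CPM, and those of spermatogonia, Leydig cells and leukocytes at or under 20.3 CPM.

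Unannotated junctions took the same small share of splicing in both genotypes. In Tdrd6+/- they made up 1.33% and 1.36% of all junction counts, and in Tdrd6-/- 1.36% and 1.35%. The 95% Wilson intervals of these shares, which cover counting error only, reached from 1.33% to 1.34% in the lowest sample and from 1.36% to 1.37% in the highest. The means were 1.35% ± 0.0216 (SD, n = 2) in Tdrd6+/- and 1.35% ± 0.00442 (SD, n = 2) in Tdrd6-/-, and the groups overlapped (two-sided exact permutation p = 1). With 2 samples against 2, the exact permutation test cannot go below p = 0.33.

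Set against the counts of their host genes instead, the unannotated junctions amounted to 1.38% and 1.45% in Tdrd6+/- and 1.47% and 1.52% in Tdrd6-/-. Here the groups did not overlap, at the smallest p the design allows (two-sided exact permutation p = 0.33). Annotated junctions of the same genes amounted to 57.0% and 59.2% of the gene counts in Tdrd6+/- and 58.9% and 60.1% in Tdrd6-/-, so both kinds of junction were lowest in Tdrd6+/- replicate 1 and highest in Tdrd6-/- replicate 2. Intron counts ran the other way, at 49.4% and 37.8% of the gene counts in host genes of Tdrd6+/- and 36.6% and 28.2% in those of Tdrd6-/- (genes with 1000 or more counts). Whether the unspliced RNA in a sample sets these percentages was not tested.

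**Figure D1:**
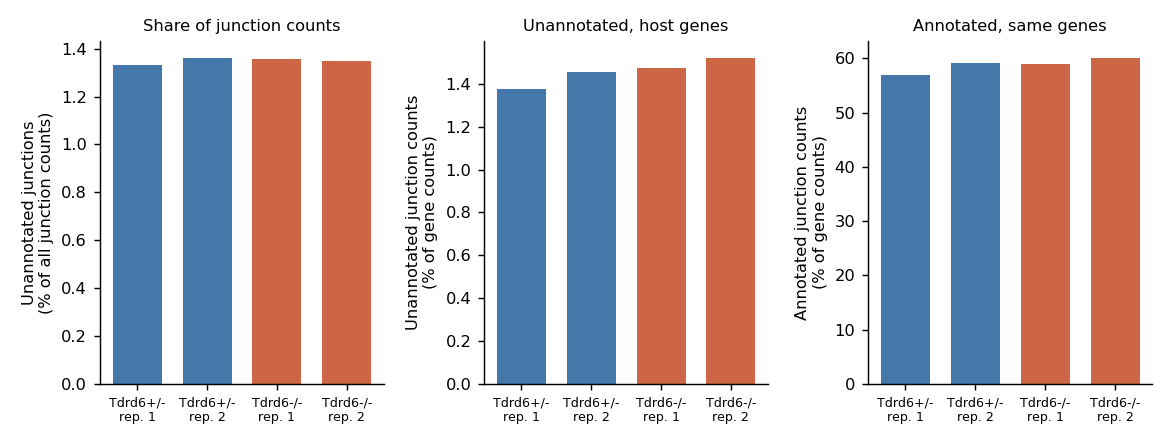
Percent of counts at unannotated junctions in each of the 4 samples, as bars from 0, with Tdrd6+/- in blue and Tdrd6-/- in orange. Left, of all junction counts, where all 4 bars lie between 1.33% and 1.36%. Middle and right, unannotated and annotated junctions of the host genes against the gene counts, where the lowest bar is Tdrd6+/- replicate 1 and the highest Tdrd6-/- replicate 2.

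Most of the junctions were counted in every pool, which follows in part from choosing them by their total over the same 4 samples. Of the 4742, 4723 were counted in all 4 samples, 19 were at 0 in at least 1, and a single one was at 0 in both samples of a genotype. That one was junction 104 of Odf2, an outer dense fibre protein of the sperm tail. It had 17 counts in Tdrd6+/- replicate 1 and 0 in the other 3 samples, including the other Tdrd6+/- pool. A 0 there allows up to 0.00501% of the 59886 Odf2 gene counts of that pool. None was at 0 in both Tdrd6+/- samples. The median junction had 79 counts over the 4 samples, 10% had 42 or fewer, and the highest had 5699. Only 328 had under 40 counts in all, so the 10-count rule removed little beyond what the deposited tables already leave out.

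A typical unannotated junction was a minor product of its gene. Its count came to a median of 0.744% of the gene count, with quartiles of 0.273% and 2.13%. Of 4728 junctions whose gene was counted in every sample, 2722 lay under 1%, 1802 between 1% and 10%, and 204 at 10% or more. In 4623 cases the gene also had annotated junctions with 10 or more counts, and there the unannotated junction had a median of 0.179 times the count of the median annotated one. In 469 of them (10.1%) it reached or passed the median annotated junction, and in 167 it reached or passed the highest.

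Above that level stood a few junctions that rivalled the annotated splicing of their genes. Among genes with at least 100 counts in every sample, the highest mean share belonged to junction 6 of ENSMUSG00000095795, with 60, 79, 81 and 99 counts (samples in the order Tdrd6+/- 1 and 2, Tdrd6-/- 1 and 2, here and below), or 56.6% ± 1.49 and 62.4% ± 2.71 of the gene count (SD, n = 2 per genotype). Junction 11 of the transcribed pseudogene Gm16976 had 74, 85, 53 and 58 counts, and junction 16 of the noncoding Gm26680 had 60, 80, 65 and 103. Their mean shares over the samples were 49.1% and 47.4%.

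Coding genes were among these too. Junction 10 of Ghrl, which encodes the precursor of the hormone ghrelin, had 87, 122, 155 and 163 counts, or 45.1% ± 4.63 of the gene count in Tdrd6+/- and 45.9% ± 0.415 in Tdrd6-/- (SD, n = 2 per genotype). Snrpf, which encodes the Sm protein F of the spliceosomal snRNPs, had 142, 149, 159 and 271 counts at junction 9. That is 31.5% ± 0.522 of its gene count in Tdrd6+/- and 34.4% ± 4.45 in Tdrd6-/- (SD, n = 2 per genotype), where only Tdrd6-/- replicate 2 stood above the other samples, at 37.6% with an exact 95% interval of 34.0% to 41.2%. This junction was counted 2.07 times as often as the median annotated junction of Snrpf. For all 8 of the highest shares, the adjusted p in the test of use described below was 1.

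The other 3 were noncoding. Junction 7 of Gm2093, a long intergenic RNA, had 257, 255, 308 and 354 counts and a mean share of 35.9%, which is 20.6 times the median annotated junction of a gene for which 2 junctions were annotated. Junction 6 of 4930488L21Rik, an antisense RNA, had 193, 182, 228 and 186 counts (33.1%). Junction 9 of the transcribed pseudogene Scgb2b23-ps had 194, 150, 130 and 185 counts (31.2%). The genotypes overlapped in each of these shares.

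By raw count the leading junctions lay in strongly expressed coding genes. Junction 79 of Mroh4, a member of the maestro heat-like repeat family, had 1257, 1454, 1552 and 1436 counts, which is 3.68% of the gene count and 1.25 times its median annotated junction. Junction 13 of Rps24, a protein of the small ribosomal subunit, had 943, 1218, 1566 and 1797 counts, or 17.9% ± 0.743 and 19.9% ± 1.69 of the gene count (SD, n = 2 per genotype). Rps24 gene counts ranged from 5414 in Tdrd6+/- replicate 1 to 9591 in Tdrd6-/- replicate 2, in the same order as the junction.

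Junction 10 of 1700028J19Rik had 823, 1153, 1183 and 1354 counts and kept to between 10.2% and 10.6% of the gene count in all 4 samples. Atr encodes the checkpoint kinase that acts on unsynapsed chromosomes in meiosis, and its junction 96 had 855, 956, 1052 and 933. Of the Atr gene counts, these were 1.52% ± 0.132 in Tdrd6+/- and 1.55% ± 0.0495 in Tdrd6-/- (SD, n = 2 per genotype). None of these junctions passed the test of use (adjusted p = 1 for each, DESeq2), though for Rps24 and 1700028J19Rik both Tdrd6-/- shares lay above both Tdrd6+/- shares.

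Host genes were mostly highly expressed and mostly coding. Of the 4742 junctions, 4210 lay in protein-coding genes, 172 in lincRNAs (long intergenic noncoding RNAs), 158 in antisense RNAs and 57 in processed transcripts (GENCODE M21 classes, matched by gene identifier). Among the 8026 genes with 1000 or more counts over the 4 samples, 2320 (28.9%) were hosts, and that share climbed with the gene count from 11.4% between 1000 and 2000 counts to 55.3% at 16000 or more. A junction has to be sequenced to be listed, so the gene count and the chance of being a host share the depth of the libraries.

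Measured against annotated splicing, the order was different. Unannotated junctions were 1.24% of the junction counts of coding genes with 1000 or more counts and 18.5% of those of 259 long noncoding genes, in which lincRNAs reached 24.6% and antisense RNAs 14.8%. By sample, the noncoding share was 18.3%, 19.0%, 18.9% and 17.8%, with Tdrd6-/- replicate 2 lowest and the genotypes overlapping (two-sided exact permutation p = 0.67). The coding share lay between 1.23% and 1.25% in every sample. Long noncoding hosts had a median of 3 annotated junctions against 13 in coding hosts.

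Genes on the X chromosome, which is transcriptionally silenced in pachytene and partly so in diplotene, were seldom hosts. Of 78 X-linked genes with 1000 or more counts, 5 (6.41%) were hosts, against 2304 of 7902 on autosomes (29.2%). X-linked genes were also less expressed. Among genes with under 4000 counts, 2 of 66 on the X chromosome and 466 of 3152 on autosomes (14.8%) were hosts. The X held 10 of all 4742 junctions. The part of the gene count in this difference was not tested further.

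A later annotation held more introns for many hosts. The gene models used for counting were Ensembl v75. GENCODE M21, a later annotation of the same mm10 genome, had more distinct introns than there were annotated junctions listed in 1236 of 2295 hosts (53.9%) and 1731 of 5387 other genes (32.1%) with 1000 or more counts. The gap was present in each class of gene count, from 45.3% against 34.6% in the lowest to 50.3% against 27.2% in the highest. Efcab8 went from 16 annotated junctions to 30 introns, Rps24 from 5 to 13 and Ghrl from 4 to 8, while Mroh4 and Snrpf stayed at 31 and 3. Without positions, no single junction could be matched to a later intron.

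**Figure D2:**
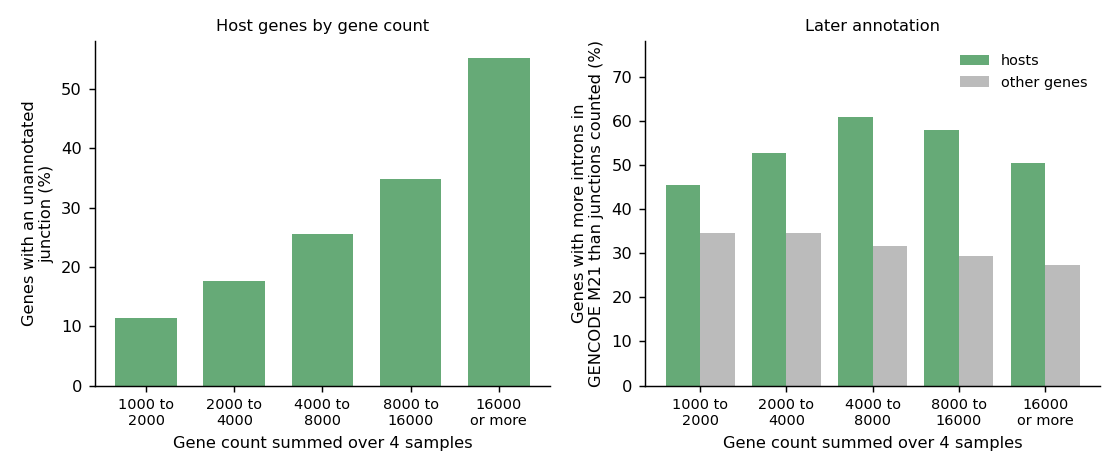
Left, percent of genes that host at least 1 unannotated junction, by the gene count summed over 4 samples, climbing from 11.4% to 55.3%. Right, percent of hosts (green) and other genes (grey) for which GENCODE M21 holds more introns than annotated junctions were counted, where the green bar is the higher in all 5 classes.

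The use of each junction was then compared between genotypes as its own count against the rest of its gene's count (DESeq2 likelihood ratio test, adjusted over all exon segments and junctions, false discovery rate 0.1). A log2 fold change in this test is a change in the ratio of the junction to the rest of the gene. Of 4741 fitted junctions, 943 in 655 genes had a mean normalised count above the filter of 47.5 and received an adjusted p. Just 1 of the 943 was called, junction 20 of Cmss1, which was lower in Tdrd6-/-, where 0.207% of all 155380 tested features were called. The called features otherwise were 269 exon segments and 52 annotated junctions.

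At an unadjusted p under 0.05, 119 junctions had a higher and 54 a lower value in Tdrd6-/-, which is 3.65% of the 4741 against 2.93% of all features. Their share of the gene count was higher in both Tdrd6-/- samples than in both Tdrd6+/- samples for 1001 junctions (21.2%) and lower for 649 (13.7%), where all features gave 19.1% higher and 15.5% lower. Annotated junctions gave 21.1% and 13.5%. The median log2 fold change was 0.064 over the unannotated junctions, 0.043 over annotated junctions and 0.0078 over exon segments, so the tilt towards higher values was one of junctions of both kinds. The intron percentages of host genes given above were lower in both Tdrd6-/- samples. In other genes with 1000 or more counts they overlapped, at 53.5% and 42.9% in Tdrd6+/- and 43.8% and 30.4% in Tdrd6-/-. Whether they bear on the tilt was not tested.

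**Figure D3:**
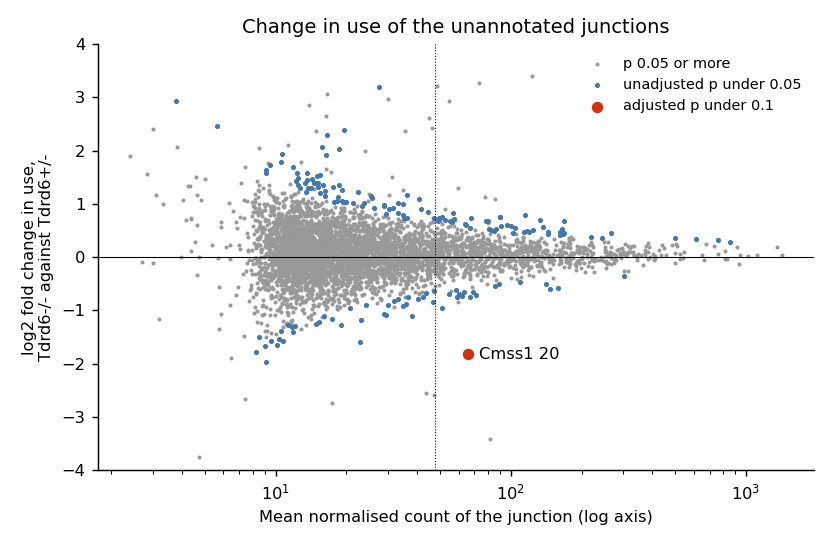
log2 fold change in use, Tdrd6-/- against Tdrd6+/-, against the mean normalised count (log axis) of 4737 unannotated junctions, with 4 others beyond the axis limit of 4 left out. Blue points have an unadjusted p under 0.05, the dotted line is the filter at 47.5 counts, and the red point is junction 20 of Cmss1, the single call.

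Junction 20 of Cmss1 had 83 and 93 counts in Tdrd6+/-, against 31 and 50 in Tdrd6-/-. The gene itself had 297 and 261 counts against 330 and 360, and did not pass the expression test (log2 fold change 0.067, SE 0.208, adjusted p = 0.934, edgeR). The junction thus fell from 31.8% ± 5.43 of the gene count in Tdrd6+/- to 11.6% ± 3.18 in Tdrd6-/- (SD, n = 2 per genotype). Exact 95% intervals reached down to 22.9% in Tdrd6+/- and up to 17.9% in Tdrd6-/-, so they did not overlap between genotypes. The junction was singled out by its p on these same counts, so this separation adds no further support. The log2 fold change in use was -1.81 (SE 0.312, adjusted p = 2.66e-05, DESeq2).

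The second unannotated junction of Cmss1, number 21, had 47 and 28 counts in Tdrd6+/- and 65 and 67 in Tdrd6-/-, the opposite order. Its log2 fold change was 0.62 (SE 0.330, adjusted p = 1, DESeq2). Junction 20 accounted for 63.8% and 76.9% of the counts of the pair in Tdrd6+/- and 32.3% and 42.7% in Tdrd6-/- (two-sided exact permutation p = 0.33, the smallest the design allows). Summed, both had 130 and 121 counts against 96 and 117.

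The 9 annotated junctions of Cmss1 summed to 261 and 232 counts in Tdrd6+/- and 243 and 260 in Tdrd6-/-. At 4 of them (junctions 11, 12, 16 and 19) both Tdrd6-/- shares also lay below both Tdrd6+/- shares. Junctions 11 and 12 had 36, 26, 21 and 27 counts and 32, 25, 18 and 19 counts, and all 9 lay under the filter and received no adjusted p. Exon segment 2, with 69, 55, 39 and 59 counts, gave an adjusted p of 0.829. Junction 20 was counted 2.34 times as often as the median annotated junction of the gene.

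The call of junction 20 depended on what it was set against. With the summed annotated junctions of Cmss1 as the reference its log2 fold change was -1.16 (adjusted p = 0.320, DESeq2), and with dispersions shared over all 8 columns of the fit its adjusted p was 1. Cmss1 lies on the minus strand of chromosome 16 (57302000 to 57606864, mm10, GENCODE M21), and Filip1l lies within the same interval on the plus strand (57353093 to 57573126). Filip1l had 89, 152, 117 and 113 counts. GENCODE M21 gives Cmss1 11 introns, 2 more than the 9 annotated junctions counted.

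**Figure D4:**
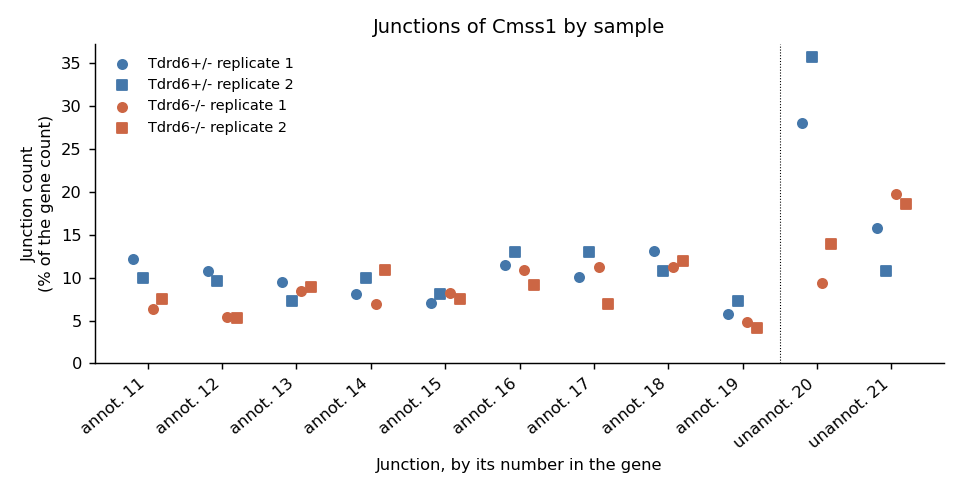
Junction counts of Cmss1 as a percent of the gene count (y axis) for its 9 annotated and 2 unannotated junctions (x axis), 1 point per sample, with Tdrd6+/- in blue and Tdrd6-/- in orange. At junction 20 both blue points lie above both orange points, at junction 21 both orange points lie above both blue points, and the annotated junctions lie under 15%.

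The 8 junctions with the smallest p among those with higher shares in both Tdrd6-/- samples were headed by Dynll2, a dynein light chain, whose junction 16 had 5 and 10 counts in Tdrd6+/- and 41 and 26 in Tdrd6-/- (log2 fold change 2.38, SE 0.591). Its share was 3.57% ± 2.10 of the gene count in Tdrd6+/- and 15.6% ± 3.65 in Tdrd6-/- (SD, n = 2 per genotype). Its mean was under the filter. Without the filter its adjusted p was 0.0615 (DESeq2), and by the edgeR quasi-likelihood test it was 0.0136. Against the annotated junctions of Dynll2 (log2 fold change 1.59), and with dispersions shared over all 8 columns, its adjusted p was 1 (DESeq2).

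Trip12, an E3 ubiquitin ligase, had 143 and 137 counts against 182 and 219 at junction 100 (log2 fold change 0.68, SE 0.194, adjusted p = 0.167, DESeq2). Its gene counts were 79951 and 87346 against 76508 and 73071, so the junction had the higher counts where the gene had the lower. Junction 61 of Ttc28, a tetratricopeptide repeat protein, had 116, 104, 107 and 131 counts (log2 fold change 0.79, SE 0.256, adjusted p = 0.394, DESeq2). Its own counts overlapped between genotypes and its shares, 8.58% ± 0.831 and 14.3% ± 4.86 (SD, n = 2 per genotype), separated through the gene count.

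Of the noncoding hosts, Gm16835 had 69, 64, 123 and 112 counts at junction 16 (log2 fold change 0.75, SE 0.242, adjusted p = 0.364, DESeq2) with nearly level gene counts of 2392 to 2646. Junction 8 of the lincRNA 4930528D03Rik had 9, 11, 16 and 29 counts. The processed pseudogenes Gm6327 and Gm18848 had 18, 12, 23 and 22 counts and 24, 26, 34 and 29 counts at their junctions numbered 2. Junction 3 of the small RNA Gm25386 had 32, 68, 49 and 57 counts. In Gm18848 and Gm25386 the junction was counted above the gene in both Tdrd6-/- samples, at 136% and 161% and at 129% and 130% of the gene count, so the rest of the gene was set to 0 there and their log2 fold changes are not printed. Gm25386 lies on the plus strand of chromosome 7 (44239748 to 44240035), inside the bounds of 1700028J19Rik on the minus strand (44229811 to 44246695).

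After Cmss1, the junctions with the smallest p among those with lower shares in both Tdrd6-/- samples lay in coding genes. Junction 120 of Kmt2d, a histone H3 lysine methyltransferase, had 37 and 33 counts against 11 and 6 (log2 fold change -1.59, SE 0.523), or 0.705% ± 0.0899 of the gene count against 0.232% ± 0.0622 (SD, n = 2 per genotype). Junction 62 of Ccdc88c had 53, 48, 19 and 28 counts (log2 fold change -1.11, SE 0.385), and junction 19 of Trim69, a RING finger protein, had 35, 39, 20 and 22 (log2 fold change -1.09, SE 0.405). In each of these the lower Tdrd6+/- count stood above the higher Tdrd6-/- count. All of them lay under the filter and received no adjusted p.

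Usp34, a deubiquitinase, had 180 and 253 counts against 98 and 89 at junction 176 (log2 fold change -0.59, SE 0.209, adjusted p = 0.560, DESeq2). Its gene counts were also lower in Tdrd6-/-, 24642 and 26951 against 19229 and 14634, and its shares were 0.835% ± 0.147 and 0.559% ± 0.0697 (SD, n = 2 per genotype). Nudc, a dynein-associated chaperone, had 63, 60, 52 and 24 counts at junction 19 (adjusted p = 0.675, DESeq2), where Tdrd6-/- replicate 2 made most of the difference. Junction 47 of Slc9b1, a sodium-proton exchanger of sperm, had 12, 15, 4 and 4 counts and lay under the filter. Junction 89 of Mroh4 closes this set and is taken up with its gene below.

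More than 1 unannotated junction was found in 1067 genes, which together held 3292 of the 4742. In 144 genes there were 5 or more and in 14 there were 10 or more. Within these 1067 genes, the junctions had log2 fold changes of both signs in 653, positive only in 265 and negative only in 149. In 12 genes 2 or more junctions had an unadjusted p under 0.05, and in 2 of these, Mroh4 and Catsperg2 (the latter named after its values were seen), they had opposite signs. Junctions of 1 gene share its count and are not replicates of each other.

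Trip12 held the most, with 20 unannotated beside 40 annotated junctions on the minus strand of chromosome 1 (84721189 to 84840516). Summed, they amounted to 3.16% and 3.53% of the gene count in Tdrd6+/- and 3.78% and 3.95% in Tdrd6-/-, with no overlap. Junctions 90 and 91 carried most of them, with 784, 1033, 958 and 884 counts and with 721, 927, 891 and 886 counts, and the next, junction 83, had 269, 245, 228 and 264. Against the annotated junctions of Trip12 the sum had a log2 fold change of 0.22 (SE 0.122, adjusted p = 0.999, DESeq2).

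Efcab8, an EF-hand protein on chromosome 2 (153779931 to 153844751, plus strand), held 18, which is more than its 16 annotated junctions. They summed to 37.8%, 37.5%, 37.4% and 37.1% of its gene count, a spread of under 1 percentage point over all 4 samples. Junctions 41 to 43, 45 and 47 to 53 made up nearly all of it, each at between 1.95% and 4.28% on average, while the rest lay at or under 1.06%. No junction of Efcab8 reached an unadjusted p of 0.05.

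Mroh4 held 17 beside 31 annotated junctions on chromosome 15 (74606029 to 74636353, minus strand), and its total count was dominated by junction 79. Junction 85 had 86 and 112 counts in Tdrd6+/- and 198 and 145 in Tdrd6-/- (log2 fold change 0.69, SE 0.229, adjusted p = 0.431, DESeq2). Junction 89 had 195 and 144 counts against 117 and 121 (log2 fold change -0.61, SE 0.213, adjusted p = 0.538, DESeq2). The samples separated by genotype at both, in opposite directions, and neither passed the threshold. Shares also separated at other junctions of Mroh4, such as junction 77 (lower in Tdrd6-/-) and junction 84 (higher). All 17 junctions together amounted to 5.86% ± 0.209 of the gene count in Tdrd6+/- and 6.01% ± 0.484 in Tdrd6-/- (SD, n = 2 per genotype).

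Catsperg2, an auxiliary subunit of the CatSper calcium channel of sperm, showed the same arrangement at lower counts. Junction 59 had 55, 49, 35 and 33 counts and junction 62 had 8, 8, 20 and 21, in a gene with 8337 to 8919 counts. Both lay under the filter. Of the remaining genes with many, ENSMUSG00000097314 had 14 unannotated and 3 annotated junctions, and the summed counts of the former were 62.4%, 117%, 114% and 175% of the gene count. Ankrd36 and BC051142 held 13 each, at 4.99% ± 0.279 and 4.77% ± 0.136, and at 3.26% ± 0.301 and 3.46% ± 0.0346 of their gene counts (SD, n = 2 per genotype).

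**Figure D5:**
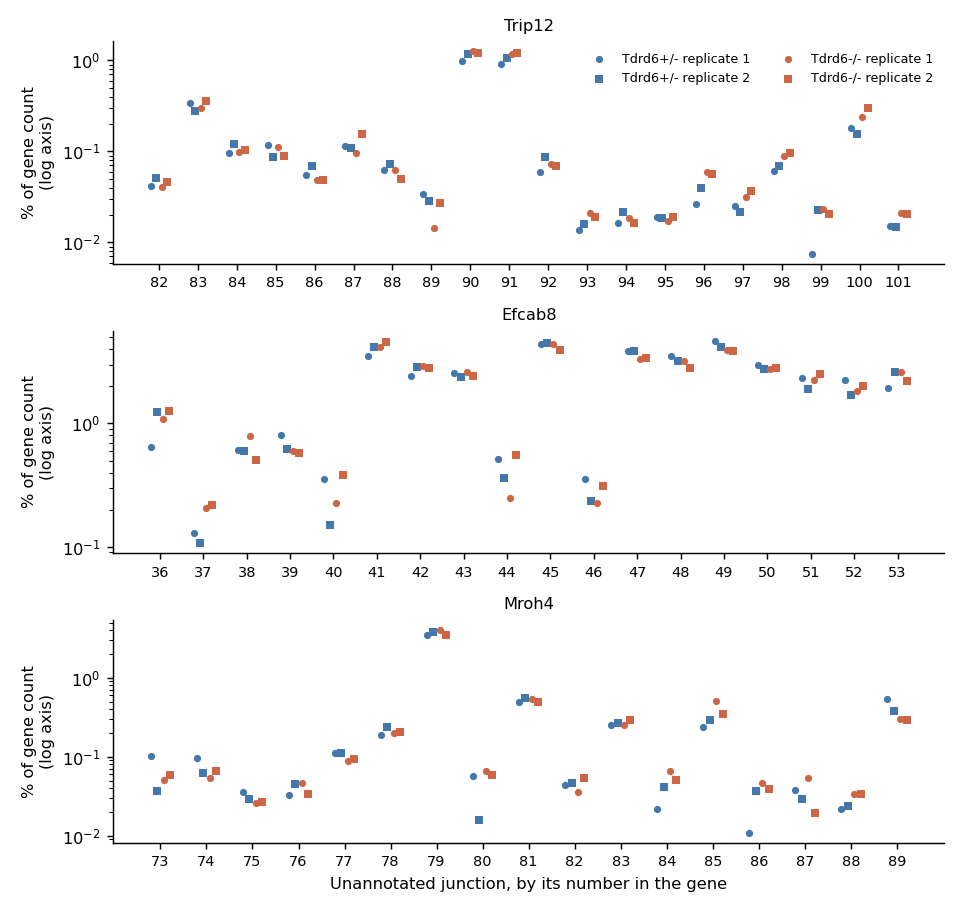
Every unannotated junction of Trip12, Efcab8 and Mroh4 as a percent of its gene's count (y axis, log scale) by its number in the gene (x axis), 1 point per sample, with Tdrd6+/- in blue and Tdrd6-/- in orange. Levels differ far more between junctions of a gene than between samples. The orange points lie apart from the blue at Trip12 junction 100 and at Mroh4 junctions 85 and 89. They also do so at several others, such as Trip12 junction 91 and Efcab8 junctions 47 and 49. Of all features, 19.1% had higher and 15.5% lower shares in Tdrd6-/- without overlap.

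When all unannotated junctions of a gene were summed and set against its summed annotated junctions, none of 2424 genes passed (DESeq2 likelihood ratio test, smallest adjusted p = 0.999). The edgeR quasi-likelihood test called 0 as well. At an unadjusted p under 0.05 there were 57 genes (2.35%), 30 with a higher and 27 with a lower value in Tdrd6-/-. The median log2 fold change over genes was 0.018. Without Tdrd6+/- replicate 2, 8 genes were called.

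More host genes were called in expression than junctions were in use. The tests differ in counts and filter, so the calls do not compare the size of the changes. Of 2503 hosts tested, 16 were higher and 171 lower in Tdrd6-/- (edgeR quasi-likelihood test, false discovery rate 0.1). Over all 16555 genes, 1.02% were higher and 3.78% lower. Hosts also had higher gene counts, with a median of 11619 against 4188.5 in other genes (1000 or more counts). The part of the gene count in these calls was not tested. The number lower rested in part on Tdrd6-/- replicate 2, without which it was 39. After Tdrd6 the smallest p values belonged to Nudt18 (log2 fold change -1.41, SE 0.155), Ccnk, which encodes cyclin K (-1.29, SE 0.146), and Scaf4 (-1.35, SE 0.158), with Dhx9, an RNA helicase (-1.20, SE 0.146), and Pabpc1, the cytoplasmic poly(A)-binding protein (-1.12, SE 0.140), close behind.

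The 353 unannotated junctions in the 171 lower hosts were set beside those of the other hosts. The median log2 fold change of those genes was -0.61, that of their junctions in use was 0.093, and 29 of the 353 (8.22%) had an unadjusted p under 0.05, 22 of them with a higher value. In 2316 hosts that were not called, the median in use over 4342 junctions was 0.061, and 142 (3.27%) had such a p. The difference between these shares was not tested. The 171 hosts were chosen for lower gene counts, and use is measured against those same counts. A tilt to higher use is therefore partly built into the choice. Junction 22 of Ccnk, named after its values were seen, had 374 and 496 counts in Tdrd6+/- and 188 and 163 in Tdrd6-/-, in a gene with 5499 and 7502 against 3389 and 2852. Its share of the gene count was thus lower in both Tdrd6-/- samples, opposite in direction to the median of the 353.

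Some of the genes that build the splicing machinery were hosts. For this and the lists below, the background is that 2320 of 8026 genes with 1000 or more counts (28.9%) were hosts. That share climbed with the gene count, and the lists were not matched for it. In a list of 27 snRNP core and assembly genes, 5 of 23 tested held 6 unannotated junctions with between 31 and 721 counts. Only 2 of the 6 had enough counts for an adjusted p, neither was called, and no gene of the list passed the expression test. Beside junction 9 of Snrpf, the highest count was that of Snrpd1, which encodes the Sm protein D1, with 40, 95, 44 and 56 counts at junction 8, where Tdrd6+/- replicate 2 alone stood high. It was the 1 junction of the list with an unadjusted p under 0.05, with a log2 fold change of -0.75 (SE 0.356, adjusted p = 1, DESeq2). The median log2 fold change over the 6 was -0.19.

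Among 31 tested genes for U1, U2, U4/U6 and U5 snRNP proteins, 6 held 9 junctions with 36 to 380 counts and a median of -0.25. Only 1 of the 9 received an adjusted p, and it was not called, and none had an unadjusted p under 0.05. In expression, 2 genes, Prpf8 and Snrnp40, were lower. Snrnp70, the U1-specific 70K protein, had 66, 83, 135 and 96 counts at junction 21, and Snrnp40, of the U5 snRNP, had 56, 36, 34 and 27 at junction 30. Their shares were 3.18% ± 0.151 against 3.49% ± 0.675 and 2.97% ± 0.0236 against 2.52% ± 0.602 (SD, n = 2 per genotype), and overlapped for Snrnp70.

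SR and hnRNP splicing regulators, many of which are known to splice their own transcripts, were hosts in 21 of 40 tested genes, with 41 junctions of 41 to 694 counts and a median log2 fold change in use of -0.056. Of the 41, 10 received an adjusted p, and none had an unadjusted p under 0.05. Ptbp2, a regulator of splicing in neurons and germ cells, led with 212, 125, 157 and 200 counts at junction 28, followed by Hnrnpc with 117, 141, 150 and 158 at junction 21. The shares of the genotypes overlapped for Ptbp2, and for Hnrnpc they were 4.37% ± 0.835 and 5.10% ± 0.0548 (SD, n = 2 per genotype). In expression, 5 of the 40 were lower (Hnrnpd, Hnrnpl, Hnrnpll, Khdrbs1 and Srsf4).

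Of 36 tested genes of the chromosome axis, synapsis and recombination, 13 held 29 junctions, none called of 7 with an adjusted p, with a median in use of -0.019 and 1 unadjusted p under 0.05, for a higher value. In expression 4 were higher (Msh4, Sycp1, Sycp2 and Tex15), and Mdc1 was among 2 that were lower. After Atr, the most counts were at junction 102 of Hfm1, a helicase needed for meiotic crossovers, with 150, 108, 111 and 102. Its share was 3.43% ± 0.0149 in Tdrd6+/- and 2.74% ± 0.161 in Tdrd6-/- (SD, n = 2 per genotype), a log2 fold change of -0.34 (SE 0.212, adjusted p = 1, DESeq2).

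The piRNA pathway and chromatoid body, to which TDRD6 belongs, had hosts in 18 of 27 genes, with 40 junctions of 33 to 744 counts. None was called of 11 with an adjusted p, 2 had an unadjusted p under 0.05 with a higher value, and the median was 0.080. Upf1, the helicase of nonsense-mediated decay, had 199, 227, 168 and 150 counts at junction 48, and Tdrd12, a piRNA factor, had 123, 105, 156 and 148 at junction 26. Upf1 was among 5 genes of the list that were lower in expression, with Pabpc1, Piwil1, Tdrd6 and Tdrkh, and its junction kept 2.22% ± 0.0681 of the gene count in Tdrd6+/- and 2.04% ± 0.115 in Tdrd6-/- (SD, n = 2 per genotype).

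By number, the lists of sperm genes already transcribed at this stage held the most junctions, though the lists differ in size and gene count. Hosts were a larger part of the piRNA and chromatoid body list, at 18 of 27 genes. The flagellum and motile axoneme list had 23 hosts of 44 tested genes with 73 junctions, none called of 24 with an adjusted p, 2 with an unadjusted p under 0.05 (both higher), and a median of 0.014, although 11 of its genes were lower in expression. The axonemal dynein heavy chains led, Dnah8 with 792, 774, 760 and 712 counts at junction 189 and Dnah12 with 236, 307, 288 and 215 at junction 138. Dnah8 gene counts were 582507 and 644551 against 515785 and 417368, so its junction fell less than the gene. The junction made up 0.128% ± 0.0112 and 0.159% ± 0.0164 of the gene count (SD, n = 2 per genotype), a log2 fold change of 0.31 (SE 0.122, adjusted p = 0.770, DESeq2).

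In the acrosome and sperm surface list, 13 of 28 tested genes held 53 junctions with 11 to 507 counts and a median of -0.0090, none called of 7 with an adjusted p, and 1 in each direction had an unadjusted p under 0.05. In expression 4 were higher (Acrv1, Adam24, Spaca1 and Spam1) and Catsperg1 was lower. Catsperd, another CatSper subunit, had 125, 117, 122 and 143 counts at junction 47, and Adam2, a sperm surface protein of the fertilin complex, had 83, 97, 87 and 110 at junction 42. Neither separated by genotype in counts.

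Genes on which the study reported individually were also looked up. No unannotated junction was counted in Efhb, Prmt5, Prmt7 or Prmt9. Cers3, a ceramide synthase, had 454 and 403 counts in Tdrd6+/- and 526 and 669 in Tdrd6-/- at junction 23, or 3.02% ± 0.0204 against 3.47% ± 0.245 of the gene count (SD, n = 2 per genotype), with a log2 fold change of 0.21 (SE 0.126, adjusted p = 1, DESeq2). Its junction 22 had 21, 21, 31 and 34 counts. Both had their higher raw counts in Tdrd6-/-, as did the gene, but the summed gene counts per sample were also higher there.

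Nipbl, which loads cohesin onto chromosomes, held 4, led by junction 96 with 195, 303, 285 and 222 counts, and its junctions 94, 95 and 97 had between 5 and 32 counts per sample. Stim1, a calcium sensor of the endoplasmic reticulum, held 5 with between 10 and 44 counts per sample, and Cage1 held 1, with 36, 42, 43 and 56. None of the junctions of Cage1, Cers3, Nipbl and Stim1 had an unadjusted p under 0.05 (DESeq2).

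Tdrd6 itself held 1 unannotated junction, number 17, with 27 and 32 counts in Tdrd6+/- and 1 and 2 in Tdrd6-/-. Against the gene count these are 0.0813% and 0.0814%, and 0.279% and 0.5%, where the exact 95% intervals in Tdrd6-/- run from 0.00705% to 1.54% and from 0.0606% to 1.79%. Its counts were low where those of the gene were low, and both intervals reach into those of the Tdrd6+/- samples. The shares did not overlap between genotypes, and the log2 fold change in use was 2.28 (SE 0.948), with an unadjusted p under 0.05 (DESeq2) and no adjusted p, from 3 counts in all in Tdrd6-/-.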

How the data were processed

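The authors isolated hCD4+ cells, removed ribosomal RNA from total RNA, made strand-specific libraries (base calls with bcl2fastq 1.8.4, per the submitters' processing notes), aligned paired reads to mm10 with GSNAP and annotated them with Ensembl v75. The deposited files hold raw counts of introns, genes, exon segments and both kinds of junction. The counting program and the rule that admitted unannotated junctions are not given in the sources used here. Nothing in the files or labels says that a replicate number marks a shared litter or day.

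Use was tested as a junction's count against its gene's count less that junction (set to 0 where negative), with sample, feature and feature by genotype terms, median-of-ratios size factors and independent filtering (DESeq2 1.42.0, R 4.3.3), over all exon segments and junctions with 10 or more counts in unmerged gene rows. The dispersion trend was fitted on a feature's own mean, with one trend for exon segments and one for junctions. One junction, whose gene had no counts, could not be fitted. The summed unannotated and annotated junctions of each gene were compared by the same tool, and gene expression by edgeR 4.0.16 (quasi-likelihood, TMM). Values per sample were compared by the exact permutation test (SciPy 1.17.1). The scripts were tested on simulated data. Junctions named are every call, the 8 smallest p in each direction without overlap in share (at most 1 per gene), the 8 highest shares in genes with 100 or more counts in every sample, the 5 highest counts, the 6 genes with the most junctions (3 genes tied at 13, taken by gene count), the 2 highest counts of each gene list and those in genes the study named. Some of the items so chosen are not reported here. The junctions and lists were chosen with earlier results of these data known. Gene symbols matched 35674 of 36778 unmerged rows, and gene positions and classes are from GENCODE M21. Intervals and limits cover counting error only.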

Additional observations from a re-analysis of the deposited data

How the results depend on the processing

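The share of all junction counts differed by 0.0047 percentage points (Tdrd6-/- minus Tdrd6+/-) and by -0.011 to 0.020 with 1 sample left out, the negative value coming without Tdrd6+/- replicate 1. The mean share of host gene counts stayed higher in Tdrd6-/- in every alternative run, at 0.044 to 0.12 percentage points with 1 sample left out. In the main setting both Tdrd6-/- values lay above both Tdrd6+/- values, so leaving out 1 sample could not change the direction. As a median over the junctions, the share was 0.703% and 0.728% in Tdrd6+/- and 0.725% and 0.763% in Tdrd6-/-, where the groups overlapped.

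In the usage test, the single call (0 higher, 1 lower) became 12 calls by the edgeR quasi-likelihood test (9 higher, 3 lower), 2 calls (1 higher, 1 lower) without independent filtering, and 0 with junctions only, against annotated junctions, or with the trend on the mean of 8 columns, which was chosen after seeing the data. One of the edgeR calls, junction 7 of Ubb, had 60 counts in Tdrd6+/- replicate 1 and 0, 0 and 3 in the others. With 1 sample left out there were 0 to 17 calls, 0 to 15 of them higher and 0 to 2 lower. The 17 came without Tdrd6+/- replicate 2, the 4 calls of another fit came when Tdrd6-/- replicate 1 was left out, and the 0 came without Tdrd6+/- replicate 1. In that last fit and with junctions only, Cmss1 kept its fold change (-2.07 and -1.81) but fell under a filter that kept fewer junctions. Its log2 fold change ran from -2.16 to -1.16 over all fits run, always lower in Tdrd6-/-. The 16 junctions named for a small p were chosen among those without overlap in share, at most 1 per gene. Only that of Cmss1 was called in the main fit. For them, 239 of 253 alternatives kept both the direction and the call, where a missing adjusted p counted as not called. In 10 the junction was newly called, in 4 (all Cmss1) it no longer was, and none reversed. The choice by shares without overlap itself favours a kept direction when 1 sample is left out.

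With the replicate block there were 2 usage calls, 1 higher and 1 lower, and it moved no other count by over 1.5 times. Samples of the same number did not deviate together (r = -0.108 over genes, -0.204 over the junctions), and the crossed replicate block, added after seeing the data, gave 2 usage calls (1 higher, 1 lower) and 28 higher host genes. Genes called for their junction ratio were 0 to 8 with 1 sample left out. Host genes called higher were 6 to 44 and lower 39 to 214, the low of 39 without Tdrd6-/- replicate 2. The independent filter kept junctions with a mean above 47.5 counts, so most of the 4742 received no adjusted p in that fit, while edgeR tested 4741.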

Other observations

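Junctions counted above their gene were a small group of their own. In 38 cases the unannotated junction had more counts than the gene row in at least 1 sample, and none of these lay in a gene with 100 or more counts in every sample. Their rows were 8 processed pseudogenes, 5 rRNA, 5 snRNA, 5 antisense RNA and 4 snoRNA genes among others, and 1 was a protein-coding gene. Left out, they moved the share of all junction counts to 1.34% ± 0.0214 in Tdrd6+/- and 1.34% ± 0.00478 in Tdrd6-/- (SD, n = 2 per genotype).

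Overlap with a gene on the other strand was looked up for hosts and other genes. Among genes with 1000 or more counts and a position in GENCODE M21, 1151 of 2309 hosts (49.8%) and 2558 of 5680 other genes (45.0%) had such an overlap. Over all genes with 1000 or more counts, hosts had a median gene count of 11619 and other genes one of 4189. This comparison was made after the Cmss1 locus had been seen, and no test was run on it.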
